A study of Homo sapiens with 6 samples.

Results

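A stable A549 clone labelled as expressing SFRP3, the secreted Frizzled-related protein encoded by FRZB, was compared with the mock population of the same series. The comparison takes 2 of the 6 arrays, chosen by their titles, and covers 11954 of the 18365 genes that had a probe with a single gene symbol. A549 is an established human lung adenocarcinoma line, and the labels also call the cells HM20, a term that they do not define. The other 4 arrays are clones labelled SFRP1, SFRP2, SFRP4 and SFRP5, and all 6 populations, the mock included, had been kept in medium containing Wnt3a for 24 h. No array without Wnt3a was analysed here. A stable clone descends from selected cells, so a difference between the SFRP3 and mock arrays cannot be told apart from a difference between any 2 selected populations. Each population had 1 array, so no difference below has a replicate check and no p-value is given. A gene was counted as different when the arrays were at least 2-fold apart, which is 1 unit on the log2(intensity + 1) scale.

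Secreted Frizzled-related proteins carry a cysteine-rich domain that resembles the Wnt-binding domain of Frizzled receptors. They can bind Wnt ligands outside the cell and are best known as Wnt antagonists, although some contexts with increased signalling have been described. SFRP3 was first described as Frzb, a secreted protein of developing cartilage and of the frog organizer that binds Wnt ligands. In the canonical pathway, Wnt3a engages Frizzled and LRP5 or LRP6, beta-catenin accumulates, and TCF/LEF factors switch on target genes.

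The gene that names the clone did not separate the arrays. The brighter FRZB probe read 512 on the SFRP1 array, 479.6 on SFRP2, 436.4 on SFRP3, 733.8 on SFRP4, 666.2 on SFRP5 and 475.5 on mock. The SFRP3 array was the lowest of the 6, and 0.12 log2 units below mock. The second FRZB probe read 347.5 on the SFRP3 array and between 256.6 and 319.0 on the others, so the 2 probes differed from mock in opposite directions. The files do not say which part of the transcript either probe reads, so a probe outside the introduced sequence would check nothing, and the SFRP3 array is called so by its label. SFRP1 was the bright member of the family, at 110461 on the SFRP3 array against 58836 on mock and 37206 to 88063 on the other clones, so that the SFRP3 array was the highest of the 6 and 0.91 log2 units above mock. SFRP2, SFRP4 and SFRP5 stayed below the level filter, each at an intensity under 100 on all 6 arrays.

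On the SFRP3 array 446 genes, 3.73% of those kept, were at least 2-fold higher than on mock and 377 genes, 3.15%, were at least 2-fold lower. The median difference over all kept genes was 0.03 log2 units. Which direction held more genes depended on the processing: the lower genes were the more numerous after quantile normalization (372 higher and 393 lower), after median centring (379 and 429), with no level filter (568 and 780) and with a stricter one (201 and 217). The lower side reached farther: 96 genes were at least 4-fold lower and 39 at least 8-fold lower, against 69 and 21 on the higher side. In 28 genes every array read either under its own 10th percentile or at or above the table median, with both kinds present, and 15 of these were among the 2-fold genes. They include MIS18A, TSEN54, POLD3, STUB1 and SEMG1 on the higher side and TMEM235 and NMT2 on the lower side. MIS18A, for example, read 26.3 on mock and between 4624 and 7480 on the other arrays, and SEMG1 read 3447 on SFRP3 and between 20.5 and 46.0 elsewhere. NMT2 had a further probe, which differed by only -0.22. For 7 of the 2-fold genes both arrays were under their own 10th percentile, so no fold is given for them, BANP and DHRS2 among them.

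**Figure D1:**
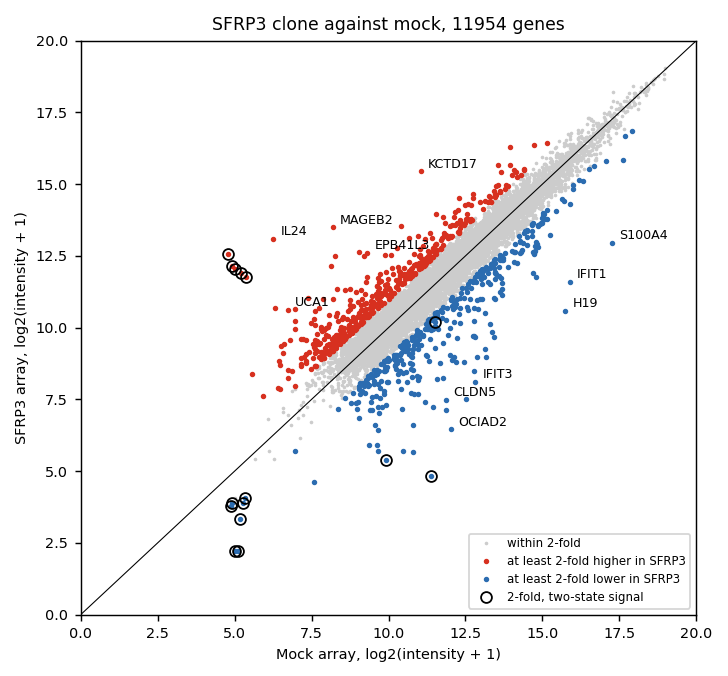
Each point is 1 of 11954 kept genes, with the mock array on the x axis and the SFRP3 array on the y axis, both as log2(intensity + 1). Red points are the 446 genes at least 2-fold higher and blue points the 377 at least 2-fold lower in SFRP3. Black rings mark the 15 of these whose signal takes only 2 states across the arrays.

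Many of the lower genes belong to the interferon response. Interferons are cytokines that cells release on sensing viral nucleic acid. Through their receptors and the transcription factors that these activate, they switch on many antiviral genes that carry an interferon-stimulated response element near their start. Of 64 listed interferon-stimulated genes, 63 were on the array and 50 passed the level filter. Of those 50, 30 were at least 2-fold lower on the SFRP3 array and none was 2-fold higher, against 3.15% lower over all genes, and the median difference of the 50 was -1.27 log2 units. The filter took the brightest of 6 arrays, so the 50 are the detectable members and not the whole list. Of the 13 members that did not pass, all read lower on SFRP3 than on mock, among them BST2, the tetherin that holds budding viruses at the cell surface, at 105.4 against 483.0. Dim signal was lower on SFRP3 in general, with a 10th percentile of 53.2 against 69.5 on mock. With no level filter 780 genes were 2-fold lower and 568 higher, so the direction of these 13 adds little to the 50. The SFRP3 array was the lowest of all 6 arrays for 25 of the 50 genes.

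Promoter sequences of 5 listed genes are shown because the response element can be read in them. Each runs 5′ to 3′ on the gene's strand, from 250 bases before to 50 bases after the start, from RefSeq on GRCh38.p14. Capitals mark the core searched for, 2 copies of GAAA with any 2 bases between them, or on the other strand 2 copies of TTTC spaced the same way, and matches may overlap each other. IFIT1 lies at chr10:89392373-89392672 (plus strand), IFIT3 at chr10:89327747-89328046 (plus), IFI6 at chr1:27672143-27672442 (minus), ISG15 at chr1:1013247-1013546 (plus) and TRIM21 at chr11:4393653-4393952 (minus).
IFIT1: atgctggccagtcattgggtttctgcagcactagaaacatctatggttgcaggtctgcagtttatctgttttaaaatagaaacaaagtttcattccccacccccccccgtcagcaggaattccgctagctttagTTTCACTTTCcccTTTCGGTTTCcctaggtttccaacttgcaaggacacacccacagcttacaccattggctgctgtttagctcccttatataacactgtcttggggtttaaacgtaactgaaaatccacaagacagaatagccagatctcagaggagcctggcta
IFIT3: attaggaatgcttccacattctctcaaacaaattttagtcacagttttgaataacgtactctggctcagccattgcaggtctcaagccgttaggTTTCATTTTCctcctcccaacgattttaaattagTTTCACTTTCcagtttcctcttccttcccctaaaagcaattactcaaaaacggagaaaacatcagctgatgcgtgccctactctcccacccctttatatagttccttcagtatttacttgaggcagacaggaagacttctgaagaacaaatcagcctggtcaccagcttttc
IFI6: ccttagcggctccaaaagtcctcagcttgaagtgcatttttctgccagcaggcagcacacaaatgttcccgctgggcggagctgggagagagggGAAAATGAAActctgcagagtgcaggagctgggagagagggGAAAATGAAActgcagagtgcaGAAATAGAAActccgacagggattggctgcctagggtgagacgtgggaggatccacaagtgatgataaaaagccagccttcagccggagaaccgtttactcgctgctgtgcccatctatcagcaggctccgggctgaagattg
ISG15: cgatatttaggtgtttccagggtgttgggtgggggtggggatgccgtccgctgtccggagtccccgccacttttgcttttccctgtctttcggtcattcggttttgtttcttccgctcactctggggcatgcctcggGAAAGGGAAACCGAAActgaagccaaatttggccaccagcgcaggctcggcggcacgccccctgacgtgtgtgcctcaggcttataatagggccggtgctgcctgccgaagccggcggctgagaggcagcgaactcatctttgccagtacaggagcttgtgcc
TRIM21: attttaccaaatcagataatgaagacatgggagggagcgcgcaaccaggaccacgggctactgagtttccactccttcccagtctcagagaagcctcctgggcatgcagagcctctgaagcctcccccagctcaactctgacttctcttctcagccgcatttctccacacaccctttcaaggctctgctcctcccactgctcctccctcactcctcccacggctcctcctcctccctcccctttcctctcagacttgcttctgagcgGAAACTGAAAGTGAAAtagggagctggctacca
The core occurred 2 times in the windows of IFIT1, IFIT3, ISG15 and TRIM21 and 3 times in that of IFI6. It was present in 996 of 27305 promoters in the table, or 3.65%, and in 274 of the 9815 promoters of kept genes, or 2.79%. Among listed interferon-stimulated genes with a promoter in the table, kept or not, it was present in 30 of 50. Of the kept members with a promoter, it was found for 16 of the 23 that were 2-fold lower and for 7 of the 18 that were not. The remaining 2-fold lower members, IFIT2, IFITM2 and OASL among them, had no promoter in the table. TRIM21, which carries it, read 2547 on SFRP3 and 2445 on mock. RSAD2 and OAS1, which were 2-fold lower, had no match in the window, which says only that these letters are not in it.

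Of the IFIT proteins, which bind foreign RNA, IFIT1, IFIT2 and IFIT3 were among the lowest members, while IFIT5, below the filter, differed by -1.58. IFIT3 read 1369 on SFRP1, 5587 on SFRP2, 276 on SFRP3, 3066 on SFRP4, 1980 on SFRP5 and 7249 on mock, a difference of -4.71 log2 units or 26.2-fold. IFIT1 read 6818, 35912, 3099, 73762, 10974 and 61013 in the same order, a difference of -4.30. For both genes SFRP3 was the lowest array, and mock was the highest for IFIT3 while SFRP4 was the highest for IFIT1. IFIT1 had a further probe, which differed by -4.13. IFIT2, beside them on chromosome 10, read 354.8 on SFRP3, 6976 on mock and 1289 to 5608 on the other clones.

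The oligoadenylate synthetases, which make the second messenger that activates RNase L, differed in size. OAS1 read 443.8 on SFRP3 and 5584 on mock, OASL 915.9 and 10490, and OAS3 6408 and 20271. OAS1 was lower still on SFRP1 (336.8) and SFRP4 (237.8) and near the mock level on SFRP2 (7779) and SFRP5 (7909). The main OAS2 probe differed by -1.03, and its other probes by -4.64 and -3.00. The GTPases MX1 and MX2, which trap viral nucleocapsids, differed by -2.19 and -1.25.

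ISG15, the ubiquitin-like modifier, was among the brightest, at 6156 on SFRP3 against 27083 on mock and 18946 to 49838 on the other clones. IFI6 read 497.9 against 4447, and a further IFI6 probe gave almost the same difference, -3.19 against -3.16. IFI44 read 50.4 on SFRP3, under that array's 10th percentile of 53.2, and 352.6 to 1258 on the other 5 arrays, so its difference of -3.96 depends on the dim end of the scale. It became -3.88 with values raised to the 10th percentile and -3.08 with a pseudocount of 50. IFI27 read 23.8 against 188.9, and its difference of -2.93 became -1.81 and -1.69 in the same ways. The interferon-induced membrane proteins IFITM1, IFITM2 and IFITM3, which block virus entry, differed by -2.43, -3.15 and -1.21. RSAD2, the antiviral enzyme viperin, read 169.6 against 2327, with SFRP4 at 158.5.

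Not every member was lower. STAT2 (0.04), TRIM21 (0.06) and TDRD7 (0.14) were slightly above mock, and LAMP3, at 0.96, was just short of 2-fold higher. RNF213 (-0.10), TRIM25 (-0.09), ZC3HAV1 (-0.08) and EIF2AK2 (-0.27), the kinase PKR, were close to it. IFI44L differed by -0.16 although its chromosomal neighbour IFI44 differed by -3.96. Among the 2-fold lower members, further probes of PLSCR1 and HELZ2 differed by only -0.19 and 0.30, against -1.29 and -1.32 on their main probes. Further probes of CMPK2, DDX58, IRF9 and OAS1 were 2-fold lower as well.

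**Figure D2:**
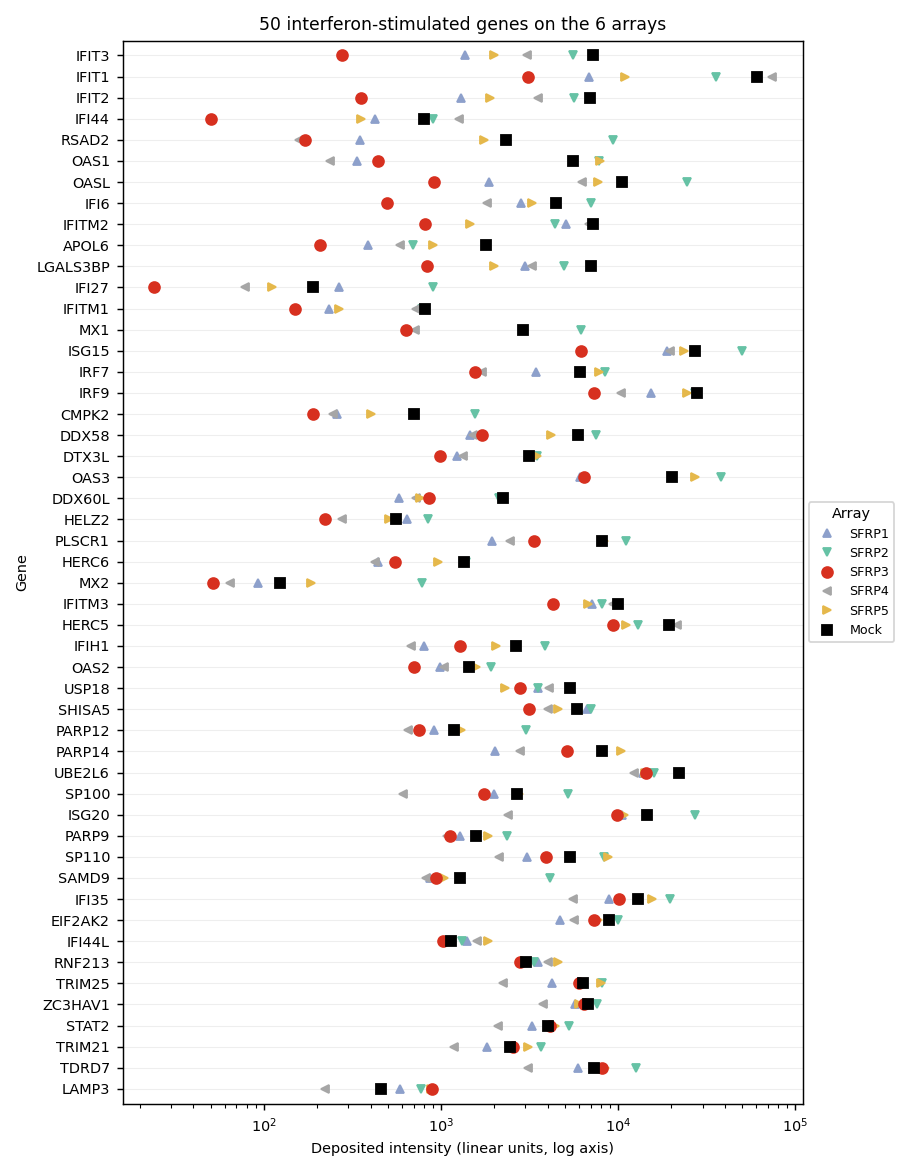
Each row is 1 of the 50 kept interferon-stimulated genes, ordered by the SFRP3 minus mock difference, and each symbol is the deposited intensity on 1 array (log axis). The red circle of the SFRP3 array lies left of the black mock square in 46 of the 50 rows and is the lowest of the 6 arrays in 25.

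Set side by side over the same 50 genes, the median difference from mock was -0.73 for SFRP1, 0.41 for SFRP2, -1.27 for SFRP3, -1.07 for SFRP4 and -0.20 for SFRP5. The genes at least 2-fold lower numbered 20, 1, 30, 28 and 9 in that order, and 8 were at least 2-fold higher on SFRP2. Over all genes 3.15% were 2-fold lower on SFRP3, and the shares of the other clones are not given here. All 5 sets of differences share the 1 mock array, so a high or low mock level enters each of them. The 30 lower genes lay on 13 chromosomes.

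Among the genes that sense nucleic acid and carry the interferon signal, 9 of 30 kept were at least 2-fold lower and 1 was higher, with a median of 0.06. The shares over all genes were 3.15% lower and 3.73% higher. IFNL2, an interferon lambda, read 59.6 on SFRP3, 796.9 on mock and 117.5 to 1097 on the other clones. TMEM173, the DNA-sensing adaptor STING, read 1187 against 7003, the lowest of the 6 arrays. The transcription factors IRF1 (3044 against 13332), IRF7 (1563 against 6068) and IRF9 (7279 against 27936) were each lowest on SFRP3 as well. The RNA sensors DDX58, known as RIG-I, and IFIH1, known as MDA5, differed by -1.81 and -1.05, and were lower still on SFRP1 and on SFRP4 respectively. The lists overlap: IRF7, IRF9, DDX58 and IFIH1 are also on the interferon-stimulated list and were counted as lower there too. The receptor chain IFNLR1 was the member on the higher side, at 962.7 against 479.3. The kinase JAK1 (0.30) and the receptor IFNAR1 (0.63) read above mock by under 2-fold. In antigen presentation, which interferons also raise, none of 19 kept genes was 2-fold away in either direction and the median was -0.34. B2M, the constant chain of class I molecules, read 68526 against 105588.

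Of 11 kept genes of chemokines, which attract leukocytes, and their receptors, 4 were lower, against 3.15% over all genes, and none was higher. On SFRP1, SFRP2, SFRP4 and SFRP5, in that order, 3, 4, 4 and 4 were lower and 1, 0, 0 and 2 higher. All these counts share the mock array. CCL5, a T-cell attractant, read 2108 against 11058, lowest of the 6 arrays. CXCL12, CXCL1 and IL8 differed by -2.72, -2.27 and -1.58, but each was lower still on another clone. Among 20 kept cytokine and NF-kappaB genes, TNFAIP2, CSF1, NFKBIA and IL7R were 2-fold lower and none was higher. IL24, a cytokine of the IL-10 family, lay on the other side, at 8748 on SFRP3 against 75.2 on mock. It was above mock on every clone: 1301 on SFRP1, 11189 on SFRP2, 400.4 on SFRP4 and 1646 on SFRP5.

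**Figure D3:**
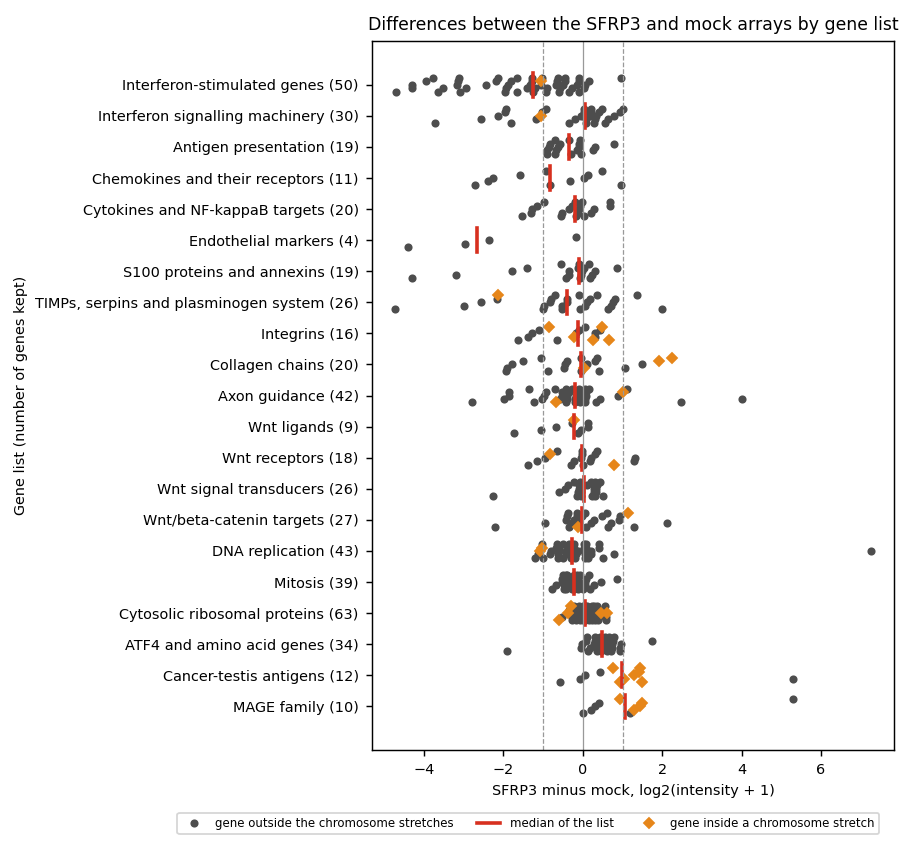
Each point is 1 kept gene, placed at its SFRP3 minus mock difference in log2 units, in the row of its list. The red line is the list's median, dashed lines mark 2-fold, and orange diamonds are genes inside the chromosome stretches described below. The interferon-stimulated row has its median at -1.27, and the cancer-testis row, with its median at 0.99, is mostly made of diamonds.

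In each Wnt list most kept genes were within 2-fold of mock, and the counts stand against 3.73% higher and 3.15% lower over all genes. Of 27 kept targets of beta-catenin, 1 was lower and 3 were higher, with a median of -0.01. CD44, a hyaluronan receptor, read 846.3 on SFRP3, the lowest of the 6, against 3945 on mock and 1420 to 11356 on the other clones, while a dimmer CD44 probe differed by only -0.60. SP5, RNF43 and ABCB1 differed by 1.13, 1.30 and 2.11. SP5 lies in a chromosome stretch described below. NKD1 (-0.15) and MYC (-0.12) were within 2-fold. Of 18 kept receptors, FZD4 (-1.37) and PTK7 (-1.17) were lower and FZD1 (1.31) and RNF43 were higher. RNF43, which removes Frizzled from the surface, is on both lists. LRP6, the co-receptor, differed by 0.31. Of 9 kept ligands WNT5B (-1.74) and WNT7A (-1.06) were lower. Of 26 kept transducers only TLE2, a co-repressor, was 2-fold away, at 515.3 against 2461, and CTNNB1, which encodes beta-catenin, differed by 0.28. Among 9 kept secreted antagonists outside the SFRP family, WIF1 (1.08) and APCDD1L (2.65) were higher and none was lower.

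The genes farthest below mock outside the interferon response had varied functions. H19, an imprinted long noncoding RNA, read 1533 on SFRP3, 54917 on mock and 11483 to 27255 on the other clones, a 35.8-fold difference, and its further probe differed by -6.74. S100A4, a calcium-binding protein linked to motility, read 7961 on SFRP3 against 156537 on mock, with SFRP4 at 205981 and the other clones between 21530 and 50216. For both, SFRP3 stood below every other array by more than 1 log2 unit. SYNPO, an actin-associated protein, read 183.4 against 5919, although its further probe differed by only -1.72, and the intermediate filament NES, or nestin, read 151.3 against 2804. SLFN12, OCIAD2, C9orf64 and CD248 read 49.5 to 95.4 on SFRP3, and SERPINB5 read 139.4. For these genes at least 1 other clone was nearly as low, so that SLFN12 and CD248, for instance, were high on mock alone. HIC1 read 496.9 against 9101 and was lower still on SFRP4 (329.3), and its dimmer probe differed by -0.99.

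Of 7 listed genes usually found in endothelium, 3 were also high on mock alone. CLDN5, a tight junction protein, read 177.0 on SFRP3, 3773 on mock and 233.8 to 900.6 on the other clones. PECAM1 read 527.2 against 4134 and ESAM 2443 against 12624, and the 5 clones lay within 527.2 to 718 and 1931 to 3340. VWF, the other marker that passed the filter, read 541.9 on SFRP3, 608.0 on mock and 595.2 to 709.6 on the other clones. CDH5, KDR and TEK, which did not pass, read 370.4, 240.2 and 163.2 on SFRP3 against 357.1, 203.0 and 320.5 on mock. The summed level of the 7 was 4463 on SFRP3, 4297 to 6683 on the other clones and 22020 on mock. Whether other cells took part in this was not tested. Fibroblast markers summed to 4663 against 3463 and blood cell markers to 6004 against 6325, with PTPRC, the pan-leukocyte marker, at 22.9 and 50.7. Among A549 and lung epithelial markers KRT7 differed by -2.53, KRT8 by 0.45 and CDH1 by 0.74, while EPCAM and the surfactant gene SFTPC were below the filter. NQO1 and ALDH1A1, which A549 cells are known to express strongly, were dim on all 6 arrays, at 62.3 to 109.6 and 303.5 to 455.2. Of the 13 listed markers on the array 7 passed the filter. Among these, AKR1C1 read 1965 on SFRP3 and 2459 on mock, AKR1B10 523.5 and 934.1, and KRT19 2687 and 2634. The list thus went both ways, and the identity of the line was not tested.

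**Figure D4:**
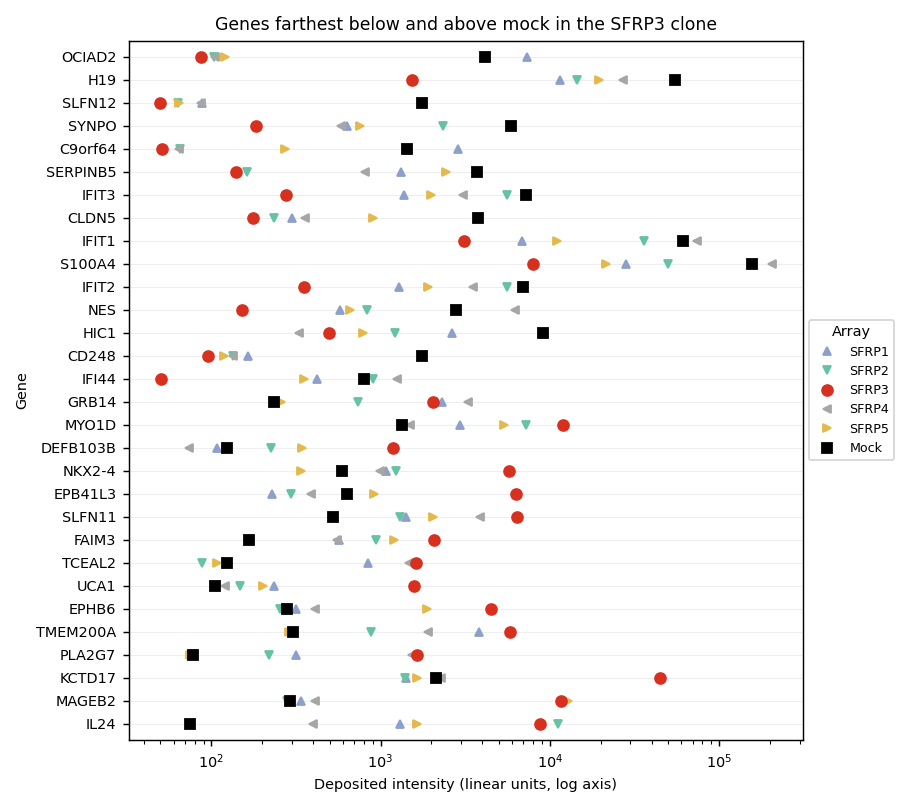
Each row is 1 gene, and each symbol is its deposited intensity on 1 array (log axis). The rows are the 15 genes farthest below and the 15 farthest above mock on the SFRP3 array, with genes of 2-state signal left out. In rows such as KCTD17 and EPB41L3 the red SFRP3 circle stands alone, while in rows such as SLFN12 and CD248 it is the black mock square that does.

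On the higher side KCTD17, an adaptor for a ubiquitin ligase, read 44611 on SFRP3 and 1386 to 2289 on the other 5 arrays, 21.1-fold over mock. EPB41L3, a membrane-cytoskeleton linker, read 6281 against 228.1 to 914.7 elsewhere, and its further probe differed from mock by 3.31. UCA1, a long noncoding RNA, read 1571 against 105.3 to 234.0. The homeobox gene NKX2-4 (5726), the defensin DEFB103B (1188), the metallothionein MT1X (80961), FAM110C (2446), MCC (1260), ZNF883 (651.9) and LAMA1 (845.3) were also more than 1 log2 unit above every other array. The further NKX2-4 probe was dim on both SFRP3 and mock and differed by -0.01. In all, 39 genes (0.326%) lay at least 2-fold above and 27 (0.226%) at least 2-fold below all 5 other arrays.

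Other high genes were shared with other clones. MAGEB2 read 11590 on SFRP3 and 12894 on SFRP5 against 278.3 to 413 on the remaining arrays. PLA2G7, the lipoprotein-associated phospholipase, read 1642 on SFRP3 and 1525 on SFRP4 against 78.0 on mock. TMEM200A (4.26), EPHB6 (4.01), TCEAL2 (3.71), FAIM3 (3.63) and SLFN11 (3.60), a DNA damage factor that blocks stalled replication forks, were also far above mock, as were MYO1D (3.15) and GRB14 (3.12).

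Matrix and adhesion genes differed in both directions. Of 20 kept collagen chains 5 were lower and 4 higher. This count and those of the lists that follow, on SFRP3, stand against 3.73% higher and 3.15% lower over all genes. Type IV collagen of basement membranes is built from 6 chains whose genes lie head to head in pairs. COL4A1 read 4403 on SFRP3 against 15248 on mock, and COL4A2 4896 against 18596, whereas COL4A5 read 3119 against 827.9, and COL4A6 760.1 against 159.8. COL4A5 and COL4A6 were highest on SFRP3 of the 6 arrays. The COL4A1 and COL4A2 starts lie 127 bases apart on chromosome 13, on opposite strands, and those of COL4A6 and COL4A5 lie 380 bases apart on X. The COL4A2 window, chr13:110307034-110307333 (plus strand), is shown because it holds both starts of the lower pair, with the bases between them in capitals.
COL4A2: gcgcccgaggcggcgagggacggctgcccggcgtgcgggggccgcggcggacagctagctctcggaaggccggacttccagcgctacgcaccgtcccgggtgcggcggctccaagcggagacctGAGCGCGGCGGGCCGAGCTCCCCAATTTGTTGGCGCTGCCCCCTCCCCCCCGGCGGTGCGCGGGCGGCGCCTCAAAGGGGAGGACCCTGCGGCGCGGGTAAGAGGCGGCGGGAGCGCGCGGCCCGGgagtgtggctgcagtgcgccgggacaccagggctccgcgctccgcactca
Of 16 kept integrins 4 were lower and none higher: ITGA2 (-1.63), ITGA10 (-1.38), ITGB4 (-1.29) and ITGB3 (-1.11). Among 26 kept serpins, TIMPs and plasminogen genes 5 were lower, with SERPINA3 at -2.99 and TIMP3 at -2.55, and 2 were higher, with SERPINB2 at 2.01. CAV1, the coat protein of caveolae, read 58367 against 201275, and its neighbour CAV2 differed by -1.62. The annexin ANXA1 (-3.19) and the proteins S100A3 (-1.79) and S100P (-1.41) were lower beside S100A4, and no kept S100 or annexin gene was 2-fold higher. On SFRP1, SFRP2, SFRP4 and SFRP5, in that order, 4, 3, 3 and 4 integrins were at least 2-fold below mock. For serpins, TIMPs and plasminogen genes the counts were 7, 9, 10 and 8, and for S100 proteins and annexins 3, 3, 5 and 5. Collagens gave 5, 3, 7 and 9. Lower members of these lists were thus not particular to SFRP3, and all clones share the mock array. The shares of all genes that were 2-fold lower on the other clones are not given here, so their counts have no background beside them. Of 42 kept axon guidance genes 7 were lower and 4 higher, PLXND1 (-2.79) and EPHB6 being the farthest in each direction.

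Of 43 kept DNA replication genes 6 were lower, against 3.15% over all genes, with a median of -0.28, among them the helicase subunits MCM4 (-1.20) and MCM5 (-1.01) and the loading factor CDC45 (-1.03), and the 1 higher gene was POLD3, whose signal took 2 states. None of 39 kept mitosis genes and none of 63 kept cytosolic ribosomal protein genes was 2-fold away. In the ATF4 and amino acid list 1 of 34 kept genes was at least 2-fold higher and 1 lower, while 31 of the 34 were above mock and the median was 0.48. Over all kept genes 6399 of 11954 were above mock. The list's median was -0.12 on SFRP1, 0.41 on SFRP2, -0.10 on SFRP4 and 0.72 on SFRP5. DDIT3, a stress-induced transcription factor, read 52602 against 15782, within the range of the other clones.

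When the kept genes were placed in the order of the RefSeq annotation on GRCh38.p14, the differences ran together along parts of some chromosomes. This order was looked at after the values had been seen and is given as a description. The 11910 kept genes with a place formed 597 windows of about 20 neighbouring genes, and 48 of them had a median at least 0.4 log2 units from 0. Stretches of 2 or more consecutive windows beyond 0.4 were found on X, 8, 2 and 10. They held 605 genes, with 100 of the 446 higher genes and 59 of the 377 lower genes.

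The X stretch ran from APOOL to IL9R, the outer part of the long arm, over 9 windows and 187 genes. Its median difference was 0.94, 172 of the 187 genes were above mock and 85, or 45.5%, were at least 2-fold higher. The window before it, CXCR3 to POU3F4, had a median of 0.11. Of all 407 kept X genes 95 were 2-fold higher, or 23.3%, and the next highest share was 7.04% on chromosome 13. BEX4 read 9473 on SFRP3 against 2002 on mock and 816.5 to 5272 on the other clones, and TCEAL4 read 19631 against 6534. The proteasome assembly factor PSMD10 (1.23) and the caspase inhibitor XIAP (1.08) lay in the same stretch, as did COL4A5 and COL4A6. Over the same genes the median difference from the shared mock array was 0.00 for SFRP1, 0.07 for SFRP2, 0.48 for SFRP4 and 0.82 for SFRP5.

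Chromosome 8 held 2 stretches on the lower side. From BHLHE22 to PHF20L1, 145 of 160 genes were below mock, with a median of -0.67, and 38, or 23.8%, were at least 2-fold lower. From ZFP41 to C8orf33, nearest the end, 57 of 58 genes were below mock, with a median of -0.60. The lower genes there include PAG1 (-3.39), the Notch target HEY1 (-1.81), MRPS28 (-1.61) and KLF10 (-1.43), and near the end PARP10 (-3.54), DGAT1 (-1.47) and GSDMD (-1.18). In the first of the 2 stretches the other clones had medians of -0.31 for SFRP1, -0.52 for SFRP2, 0.16 for SFRP4 and -0.18 for SFRP5. On chromosome 2 the stretch ERMN to RAPH1, which contains FRZB, had a median of 0.52 over 140 genes, with 119 above mock and GRB14 (3.12), COBLL1 (1.94) and GAD1 (1.73) the farthest. Its median was -0.37 on SFRP4 and -0.06 to 0.16 on the other clones. On chromosome 10 the stretch MCM10 to ZNF37A had a median of -0.49 over 60 genes, and -0.43 on SFRP5. DNA was not measured in these arrays.

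**Figure D5:**
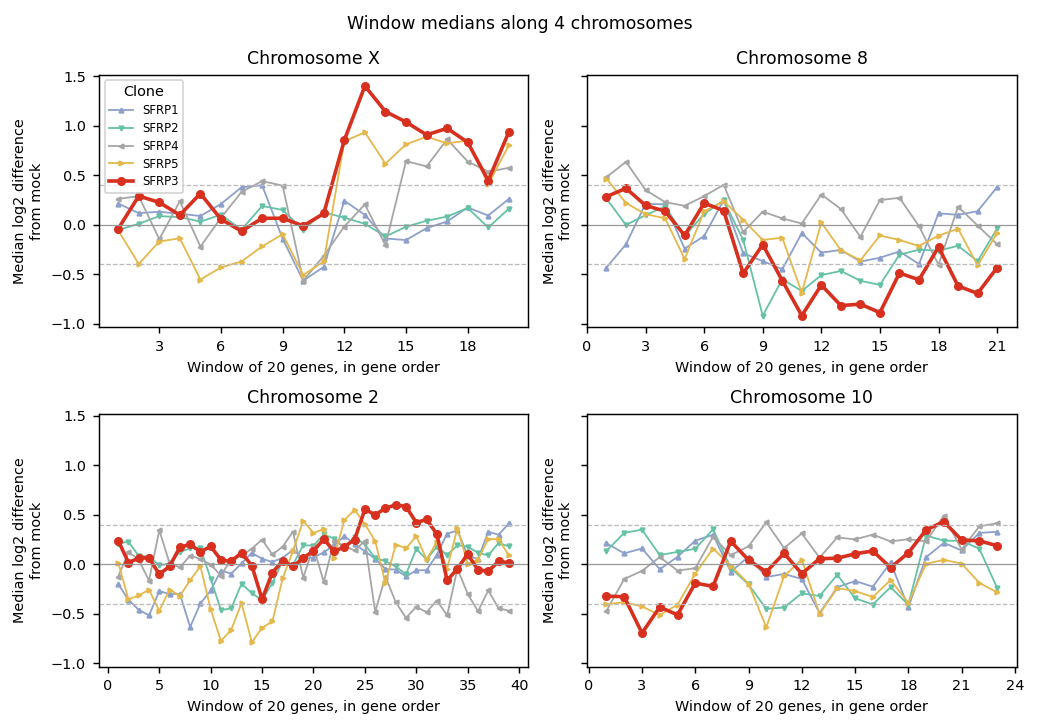
Each point is the median log2 difference from mock over a window of 20 neighbouring kept genes, in gene order along chromosomes X, 8, 2 and 10, and each line is a clone. All 5 lines share the mock array, and dashed lines mark 0.4 on either side of 0. The red SFRP3 line steps from 0.11 to 0.86 between the 11th and 12th X windows and stays between 0.45 and 1.40 after it, with SFRP5 at 0.41 to 0.93 there.

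These stretches changed the account of a few gene groups. Of 12 kept cancer-testis antigens, normally restricted to germ cells, 6 were at least 2-fold higher and none lower, with a median of 0.99. Over all genes 3.73% were higher. MAGEA4 read 88903 against 36162, MAGEA1 12966 against 4774, MAGEA10 9979 against 3545, CTAG2 31922 against 12008 and CT45A5 4314 against 2110. Further probes of CTAG2 (0.03) and CT45A5 (-0.06), which were dim, differed little from mock, while the further probe of MAGEA4, which was bright, differed by 1.43. All 5 lie in the X stretch, which held 7 of the 12. Of the 5 members outside it only MAGEB2 was 2-fold higher, and their median was 0.06. For collagens, leaving out the 3 members in stretches left 5 lower and 2 higher genes with a median of -0.40. A stretch needed 2 consecutive windows, so single windows beyond 0.4 were not left out. COL4A1 and COL4A2 are on chromosome 13, whose last window, CARKD to CHAMP1, was such a window. Its median was -0.61 on SFRP3, -0.39 on SFRP1, 0.33 on SFRP2, 0.33 on SFRP4 and -0.47 on SFRP5. The window before it, DOCK9 to RAB20, had a median of -0.34 on SFRP3. The interferon-stimulated list had 1 member in a stretch, IFIH1 on chromosome 2, and without it 29 of 49 were lower, with a median of -1.29. Genes lower in the DNA replication list fell from 6 to 4. Of the 27 kept beta-catenin targets 2 lay in stretches, SP5 among them, and of the 25 outside 2 were higher and 1 lower.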

How the data were processed

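Per the labels' protocols, amplified total RNA carried a single dye, Cy5. The deposited table gives linear intensity values for 31741 probes on 6 arrays, with array medians between 599.6 and 689.0. The authors' background correction and scaling are not described. Negative intensities were replaced by 0 and 1 was added before taking log2. Differences of dim genes depend on this choice and can become smaller with a larger pseudocount. With a pseudocount of 50, that of IFI27 went from -2.93 to -1.69.

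Probes were named through the platform annotation: 24740 had 1 symbol and were used, 977 had several and 6024 none. Each gene was read from its brightest probe on average and kept when any array reached the table median, an intensity of 641.8. The number of arrays limits precision. The procedure was tested on simulated data with little noise and with large changes planted only in bright genes. Such a test cannot say how many calls are false when each population has 1 array.

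Members and gene lists were chosen with earlier results of these data known. The text names the SFRP family, the 15 genes farthest in each direction, up to 10 with a single array under its 10th percentile, the 10 per direction farthest beyond all other arrays, and the 2-fold or best-known members of lists. GSDMD, PAG1, BEX4, TCEAL4, COBLL1, GAD1, GRB14, MYO1D, PARP10 and CAV2 were chosen after their values were seen. Gene order and promoters came from RefSeq tables on GRCh38.p14. Alternatives were quantile normalization, median centring, a floor, a pseudocount of 50, other filters and the mean of a gene's probes. Python 3 with pandas and numpy was used.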

Additional observations from a re-analysis of the deposited data

Results flagged for a closer look

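Probes without exactly 1 gene symbol were left out of every comparison, yet some of them separated the arrays: of 2774 such probes that reached the level filter, 123 were at least 2-fold higher and 69 at least 2-fold lower on the SFRP3 array than on mock, or 4.43% and 2.49%. Their differences ran from -4.97 to 7.57 log2 units, and they cannot be named here.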

How the results depend on the processing

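No paired analysis was possible because each group has 1 array. The count of genes at least 2-fold higher was 201 with the stricter filter (brightest array at or above the 75th percentile of the table), which tests 7130 genes, and between 346 and 568 under the other 10 alternatives. The count of lower genes was 217 with the stricter filter and 780 with no filter, which tests 18365 genes (568 higher). Quantile normalization gave 372 higher and 393 lower genes, and median centring 379 and 429. Under these 2 scalings, with no filter and with the stricter filter the lower genes outnumbered the higher ones. Counts with SFRP3 or mock itself at or above the table median (399 and 347), without genes of 2-state signal (441 and 367) and without the chromosome stretches (346 and 318) were chosen after seeing the data. The median of the interferon-stimulated genes stayed between -1.32 and -1.13, that of the X stretch between 0.88 and 1.01, and that of the first chromosome 8 stretch between -0.77 and -0.65. The cancer-testis median ran from -0.08 to 1.03, and the collagen median from -0.96 to -0.05. None of the 64 named genes put through the alternatives changed sign, and 6 came within 2-fold under some alternative: BANP, DHRS2, HELZ2, MX2, OAS2 and PLSCR1. Many genes named in the text, such as CD44 and COL4A1, were not among the 64. Of 71 gene lists, 36 had a median that moved by more than 0.1 under some alternative, and 27 had one that crossed 0. Of 154 genes 2-fold apart with another bright probe, 98 were 2-fold the same way on that probe and 144 had the same sign. Dim probes have no stated background limit.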

Other observations

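Further gene groups had members at least 2-fold away, to be read against 3.73% higher and 3.15% lower over all genes. Among 51 kept carbonic anhydrase, cytochrome P450 and steroid enzyme genes 5 were at least 2-fold higher and 4 lower on the SFRP3 array: CYP39A1, an oxysterol hydroxylase, read 2044 against 295.1 on mock, and HSD11B1, which regenerates active cortisol, read 469.4 against 4250. ALDH3A1, an aldehyde dehydrogenase, read 96.3 against 756.5 and was the only one of 16 kept family members 2-fold away. Among 214 kept solute carriers 8 were higher and 5 lower, shares near those over all genes. The urea transporter SLC14A1 differed by 2.53, and the fructose transporter SLC2A5 by 3.01 on its main probe but by -0.76 on its other probe. Of 299 kept ZNF zinc finger genes 14 were higher and 1 lower, with a median of 0.22, and 3 of the 14 lay in the X stretch. Among 31 kept immediate early and feedback genes 5 were higher, EGR1 (1.29) and DUSP1 (1.34) among them, and 2 lower. The airway secretory genes AGR2 (-3.88), CES1 (-3.45) and TFF3 (-1.95) were lower, and none of the 15 kept members of their list was 2-fold higher. The cytidine deaminase APOBEC3G, an antiviral gene that no list held, read 289.7 against 1981 on mock and 2104 on SFRP2, and was named after its value was seen. In the Schlafen family SLFN5 (1.88) and SLFN11 were higher and SLFN12 lower, of 5 kept members.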
